A study of Homo sapiens with 24 samples.

Results

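The 48 genes described here are *MYC* and genes of ribosome production, together with 3 metabolic targets of MYC, in U251 cells exposed to G-1. U251 is a human glioblastoma cell line, and G-1 is an agonist of the G protein-coupled estrogen receptor GPER. The members were chosen by name and by role, with earlier results of these data known. Their shares beside those of all genes are therefore a description. The probes of the members were found through the RefSeq transcript that each array probe carries. The members are 48 of 24843 gene symbols matched on the array and 48 of the 14233 genes with a symbol that were tested. RNA from 6 groups of 4 independent experiments, per the labels, was hybridized to 24 one-colour arrays. The groups were cells exposed to 0.1% DMSO, to the G-1 IC50 dose or to 1 µM G-1, each for 24 h or 72 h. All groups had been deprived of steroid hormones in charcoal-stripped serum before exposure. The study's methods state a DMSO concentration other than that of the labels, which is given here. The IC50 dose is the one that the study had measured in a viability assay, and the labels give it no number. Where a label field for duration contradicted a sample's title (in the IC50 group at 24 h and the 1 µM group at 72 h), the title was followed.

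MYC is a transcription factor that binds DNA as a dimer with MAX at E-box motifs, and its best known targets in growing cells are the genes of ribosome production. RNA polymerase I transcribes the ribosomal DNA into a long precursor in the nucleolus. Small nucleolar ribonucleoproteins (snoRNPs) modify that precursor, and assembly factors cut and fold it into the small and the large subunit. Gliomas often carry high MYC activity, and nucleolar output sets how much protein a cell can make. The members are described in that order: *MYC*, transcription of ribosomal DNA, box C/D and box H/ACA snoRNPs, small subunit, large subunit and metabolic targets.

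The letters CACGTG, the E-box that MYC and MAX prefer, were frequent near the starts of these genes. Promoter windows of 300 bases, from 250 bases before to 50 after the gene start, came from RefSeq (GRCh38.p14) and were found for 39 of the 48 members. CACGTG reads the same on both strands, and it lay in 15 of the 39 windows (38.5%), against 7.43% of 27305 promoters and 10.0% of the 11263 promoters of tested genes. The variants CACGCG and CGCGTG, which are each other's reverse complement, lay in 11 of the 39 (28.2%), against 11.4% of all promoters and 17.9% of those of tested genes. The 8 stretches printed here belong to the 7 members with the highest change at 1 µM G-1 for 72 h among those that hold the motif. Each stretch is written 5′ to 3′ along the gene with the E-box in capitals, in genome build GRCh38.p14. The start is the one that the promoter table uses, which was the outer bound of the annotated gene in 35 of the 39 members. In the other 4 it lay inside the gene, in *BYSL* by 12740 bases, in *PES1* by 15103, in *WDR74* by 2219 and in *NPM1* by 733.
*PNO1*, chr2:68157885-68157914, plus strand, E-box from base 10 after the gene start: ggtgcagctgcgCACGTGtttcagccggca
*NOP2*, chr12:6568242-6568268, minus strand, from base 36 after the start: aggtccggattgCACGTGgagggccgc
*BYSL*, chr6:41921515-41921544, plus strand, from base 29 after the table's start, which lies inside the gene: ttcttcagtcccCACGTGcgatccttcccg
*IMP4*, chr2:130342682-130342711, plus strand, from base -203, before the start: gcggtcctaagtCACGTGtgacattctgta
*IMP4*, chr2:130342900-130342929, plus strand, from base 16 after the start: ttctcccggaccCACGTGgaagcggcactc
*RRP9*, chr3:51941892-51941921, minus strand, from base -5, across the start: gggttcagctgcCACGTGagttctgcggcc
*UTP4*, chr16:69132621-69132650, plus strand, from base -16, before the start: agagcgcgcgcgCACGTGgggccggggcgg
*SRM*, chr1:11060200-11060229, minus strand, from base -199, before the start: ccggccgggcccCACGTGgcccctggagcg

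*IMP4* alone among the 15 members held the motif more than once. The match is a description of letters, and binding of MYC was not measured.

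A level is written here as the log2 intensity of a gene's brightest tested probe after subtraction of the 75th percentile of its array. A change is the difference between the means of 2 groups on that log2 scale, with its standard error (SE) from limma. A gene was called when its p-value, adjusted with the Benjamini-Hochberg method over 22970 tested probes, was under 0.05. All 48 members were tested, and the probe used for each was well above background on all 24 arrays with no saturated spot. No member therefore passed the filter through one group alone. The arrays measured RNA pooled from many cells, so that a change in RNA per cell and a change in the share of cells that make it cannot be told apart. Levels are relative to the rest of the RNA on each array, so that a change in total RNA per cell is not seen.

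There were 3 slides, each with 8 arrays, and 2 sessions of scanning. All 8 arrays of 1 µM G-1 shared slide 3, which held nothing else and made up the second session. When 1 µM G-1 is set against DMSO or the IC50 dose at the same duration, the effect of dose and that of the slide cannot be told apart. The difference between 72 h and 24 h within 1 µM G-1 lies inside slide 3, and the interaction of 1 µM G-1 with duration cancels a constant offset of slide 3. On slides 1 and 2 the DMSO arrays lay 3 and 1 at 24 h, and 2 and 2 at 72 h. An offset between slides 1 and 2 therefore does not cancel fully. Between 38.0% and 40.7% of spots were well above background in the second session, and between 41.1% and 44.5% in the first. Replicates of a group correlated between 0.990 and 0.996. The 7 astroglial and glioma markers, among them *GFAP* and *VIM*, were well above background on all arrays. So were 4 of 6 neuron markers and 1 of 5 endothelial markers, *KDR*. The 5 leukocyte and microglia markers with a probe, *PTPRC* among them, were well above background on no array.

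In cells given 1 µM G-1 over 72 h, 45 of the 48 members rose and none fell. Over all tested genes, 35.2% rose and 30.9% fell. The median change of the members was 0.79, against 0.03 over all tested genes, and the changes ranged from -0.03 to 1.99. The change passed 2-fold in 13 members, as it did upward in 4.93% of all tested genes. In 42 members all 4 arrays of 1 µM G-1 lay above all 4 DMSO arrays, which held for 31.2% of all genes. The 3 members not called were *TSR1* (-0.03 ± 0.08 SE), *CAD* (-0.01 ± 0.10) and *POLR1A* (0.19 ± 0.08). The adjusted p-values of the members came from the same limma fit, and SEs lay between 0.06 and 0.16.

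**Figure D1:**
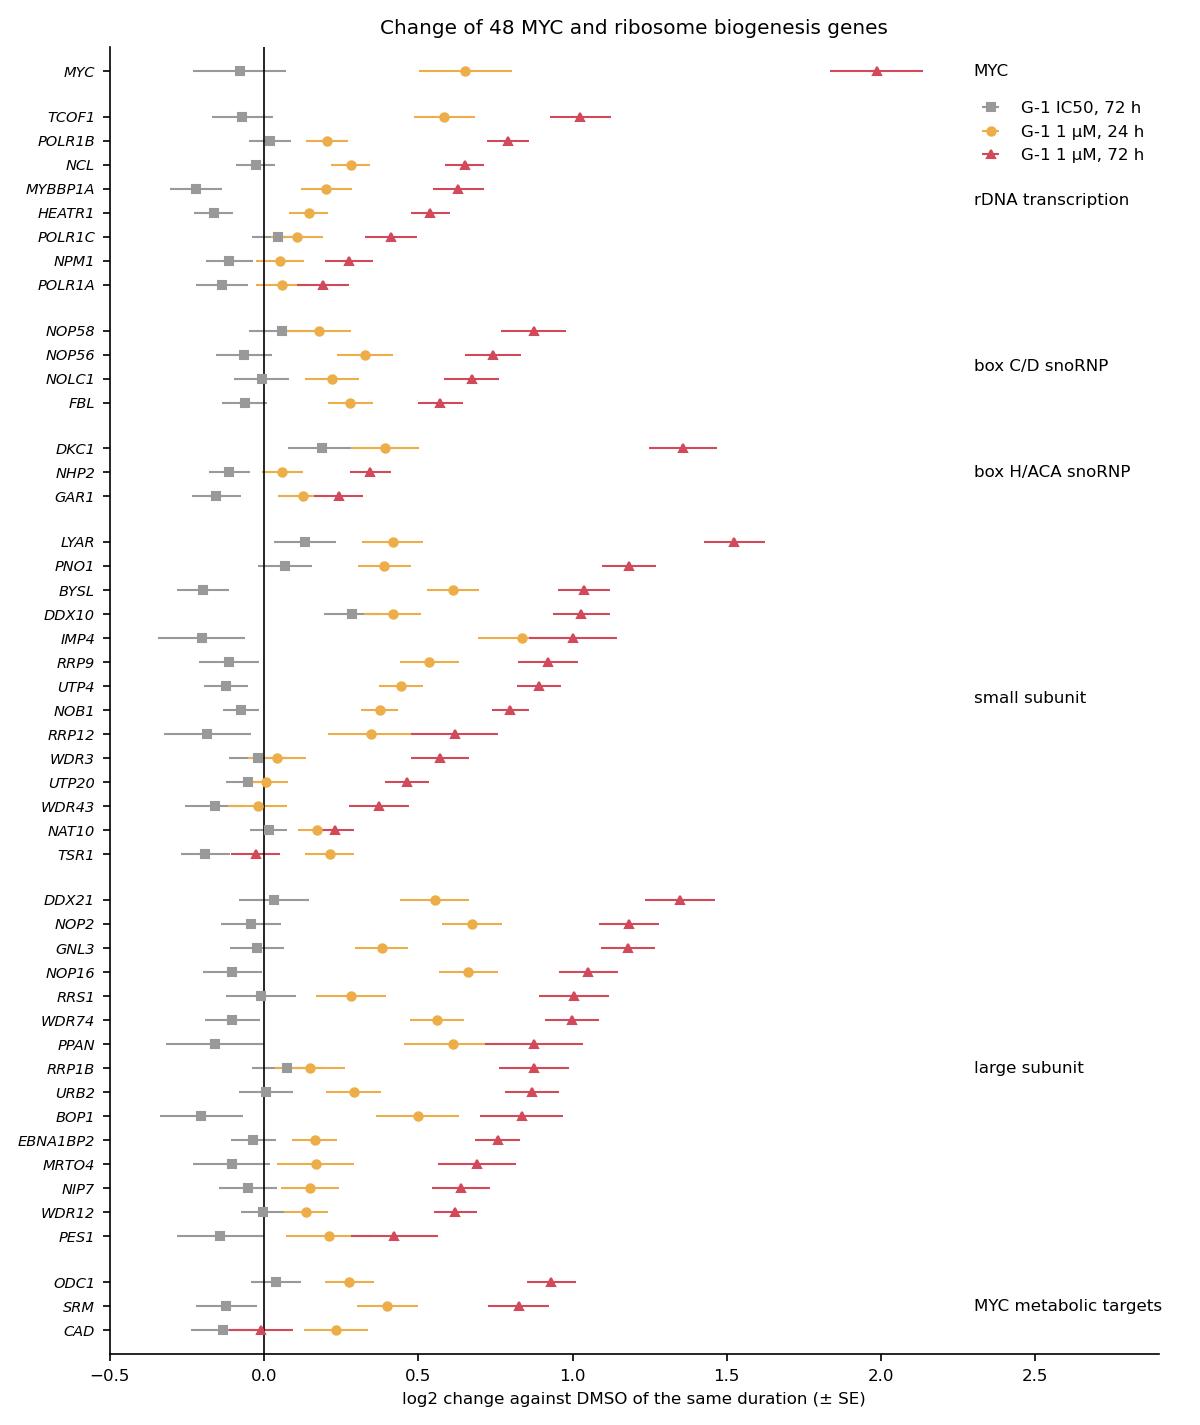
Log2 change of each of the 48 members against DMSO of the same duration (x axis, points with SE bars, 4 arrays per group), with members grouped by role on the y axis. At 1 µM G-1 for 72 h (triangles) 46 of 48 members sat above 0, up to 1.99 for *MYC*, at 24 h (circles) all but *TSR1* and *CAD* sat nearer to 0 than at 72 h, and at the IC50 dose for 72 h (squares) they ranged from -0.22 to 0.29.

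*MYC* (chr8:127735434-127742951, GRCh38.p14), the transcription factor itself, had the highest change of all members at 72 h. Its levels on the 4 arrays of DMSO 72 h were 2.75, 2.62, 2.97 and 2.91. On the arrays of 1 µM G-1 at 72 h they were 5.00, 4.51, 4.81 and 4.87, so that the groups did not overlap. The change was 1.99 ± 0.15 SE, or 3.96-fold (n = 4 arrays per group, limma adjusted p = 7.2e-10). An exact two-sided permutation test of the 8 arrays gave p = 0.0286, the smallest p that 4 against 4 allows.

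At 24 h the levels of *MYC* were 3.32, 3.43, 3.18 and 3.25 with DMSO and 4.01, 4.02, 3.96 and 3.78 with 1 µM G-1. The groups again did not overlap, with a change of 0.65 ± 0.15 SE, or 1.57-fold (limma adjusted p = 0.00324). With the IC50 dose the levels were 2.78, 3.11, 3.01 and 3.14 at 24 h and 2.23, 2.56, 3.06 and 3.09 at 72 h. At 24 h all 4 IC50 arrays lay below the DMSO arrays, with a value of -0.28 ± 0.15 SE that did not pass the limma test (adjusted p = 0.997), while the exact permutation test of that single gene gave p = 0.0286. At 72 h the IC50 and DMSO arrays overlapped (-0.08 ± 0.15 SE, adjusted p = 0.925 by limma).

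The mean level of *MYC* was lowest with the IC50 dose at 72 h (2.74 ± 0.41 SD) and DMSO at 72 h (2.81 ± 0.16 SD), which overlapped. It was then 3.01 ± 0.16 SD with the IC50 dose at 24 h and 3.29 ± 0.11 SD with DMSO at 24 h. It was highest with 1 µM G-1, at 3.94 ± 0.11 SD at 24 h and 4.80 ± 0.21 SD at 72 h. Within 1 µM G-1, on a single slide, *MYC* was higher at 72 h than at 24 h by 0.86 ± 0.15 SE (limma adjusted p = 1.2e-04). Within DMSO the value was in the other direction, -0.48 ± 0.15 SE, with all 4 arrays at 72 h below those at 24 h, and did not pass the test (adjusted p = 0.0868). The interaction of 1 µM G-1 with duration, the change at 72 h minus that at 24 h, was 1.33 ± 0.21 SE (limma adjusted p = 8.4e-05). A second *MYC* probe was well above background on no array and was not used.

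**Figure D2:**
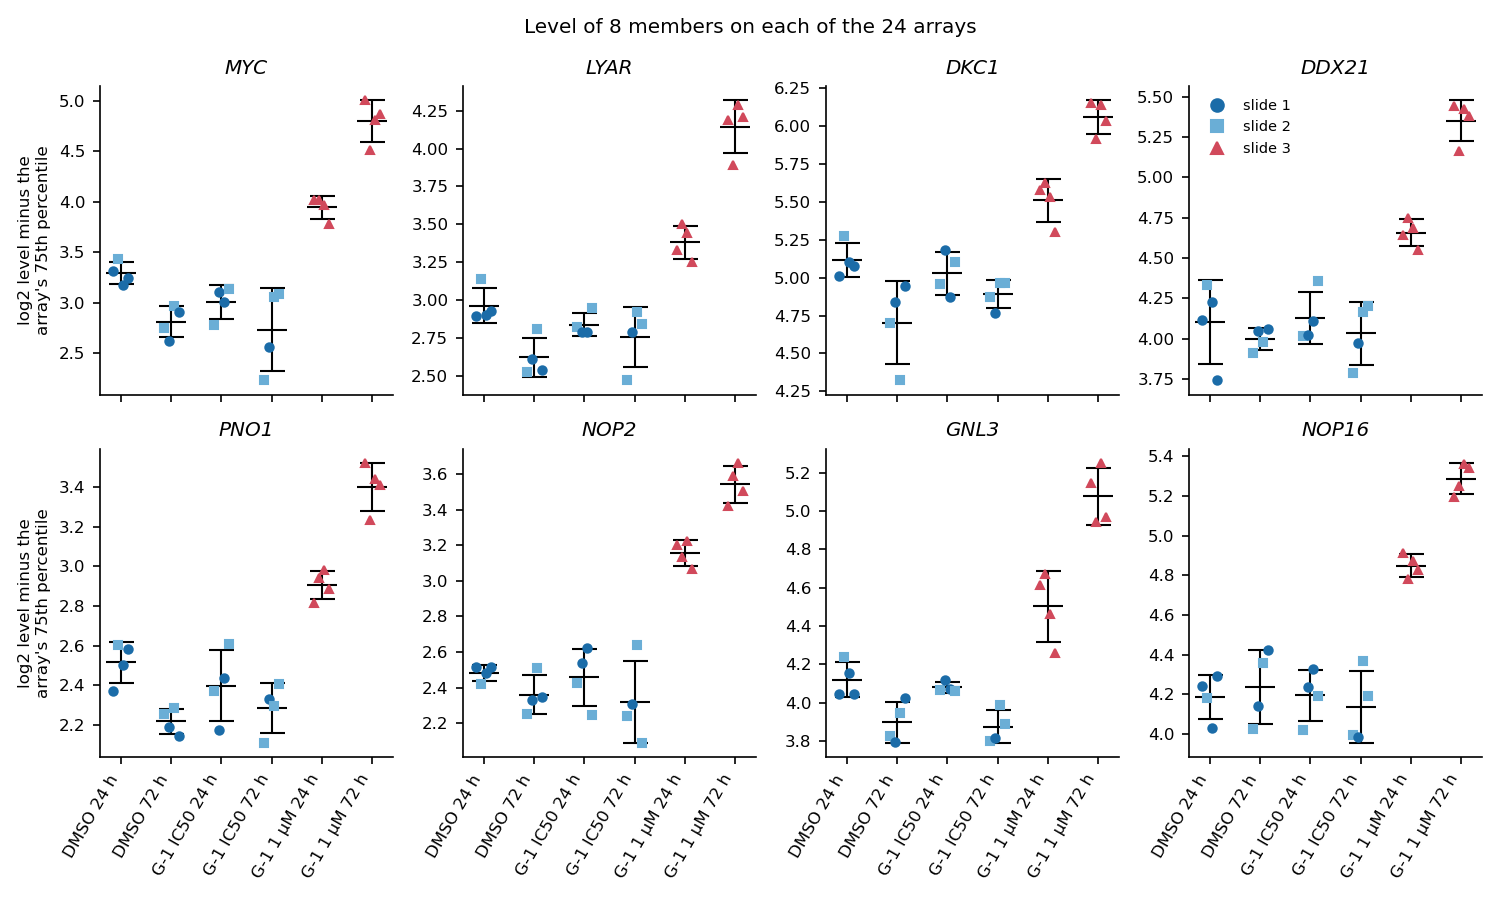
Levels of 8 members on each of the 24 arrays (y axis, log2 intensity minus the 75th percentile of the array) by group (x axis), with the mean and SD as black bars and the slide as symbol and colour. In all 8 genes the 4 arrays of G-1 1 µM 72 h sit above every other array, and all of them lie on slide 3.

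Of the 8 members that act in transcription of ribosomal DNA, 7 rose at 72 h, with a median of 0.58. *TCOF1*, the treacle protein that brings RNA polymerase I and its factor UBTF to the ribosomal genes, was the highest of them. Its levels were 4.40, 4.33, 4.66 and 4.43 with DMSO and 5.47, 5.48, 5.51 and 5.47 with 1 µM G-1, without overlap. The change was 1.02 ± 0.10 SE (limma adjusted p = 1.9e-08). *POLR1B*, the second largest subunit of RNA polymerase I, rose by 0.79 ± 0.07 SE, and *POLR1C*, shared by RNA polymerases I and III, by 0.41 ± 0.08. *NCL*, nucleolin, rose by 0.65 ± 0.06, *MYBBP1A*, a nucleolar MYB-binding protein, by 0.63 ± 0.08, and *HEATR1*, needed for early processing, by 0.54 ± 0.06.

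*POLR1A*, the largest subunit of RNA polymerase I, stood apart. Its levels were 1.81, 1.91, 2.04 and 1.76 with DMSO and 2.13, 1.99, 2.13 and 2.03 with 1 µM G-1 at 72 h. The groups overlapped and the change of 0.19 ± 0.08 SE missed the threshold (limma adjusted p = 0.0546), while a second probe gave -0.19 ± 0.12. Leaving out any 1 of 6 single arrays brought its adjusted p under the threshold (0.0217 to 0.0486), as did the replicate number as a block. *NPM1*, the abundant nucleolar chaperone nucleophosmin, rose by 0.28 ± 0.08 by its brightest probe. Its other 2 probes gave 0.65 ± 0.07 and 0.19 ± 0.16, and only the first of these passed the test.

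All 4 members of the box C/D snoRNPs, which guide methylation of ribosomal RNA, rose at 72 h, between 0.57 and 0.87. *NOP58*, a core protein, had levels of 5.28, 5.45, 5.38 and 5.63 with DMSO and of 6.33, 6.10, 6.46 and 6.35 with 1 µM G-1. Those groups did not overlap, and the change was 0.87 ± 0.11 SE. *NOP56*, its partner, rose by 0.74 ± 0.09, *NOLC1*, a snoRNP chaperone, by 0.67 ± 0.09, and *FBL*, the methyltransferase fibrillarin, by 0.57 ± 0.07.

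The 3 members of the box H/ACA snoRNPs, which guide pseudouridylation, all rose, but by unequal amounts. *DKC1*, the pseudouridine synthase dyskerin (chrX:154762864-154777689), had levels of 4.70, 4.84, 4.32 and 4.95 with DMSO at 72 h. With 1 µM G-1 they were 6.15, 5.91, 6.14 and 6.03, all above the DMSO arrays, for a change of 1.36 ± 0.11 SE or 2.56-fold (limma adjusted p = 1.9e-09). Its partners in the same particle rose less, *NHP2* by 0.34 ± 0.07 and *GAR1* by 0.24 ± 0.08. The levels of *NHP2* were 7.70, 7.74, 7.79 and 7.92 with DMSO and 8.25, 8.06, 8.05 and 8.15 with 1 µM G-1, without overlap. Those of *GAR1* overlapped, with 5.28, 5.31, 5.43 and 5.60 against 5.64, 5.55, 5.72 and 5.68. With scaling at the 50th percentile *GAR1* was not called.

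Of the 14 small subunit members, 13 rose at 72 h, 5 of them by more than 2-fold, with a median of 0.84. *LYAR* (chr4:4267701-4290154), a nucleolar growth regulator, had levels of 2.53, 2.61, 2.81 and 2.54 with DMSO and of 4.19, 3.89, 4.29 and 4.21 with 1 µM G-1. No array overlapped, and the change of 1.52 ± 0.10 SE, or 2.88-fold, had the smallest adjusted p of the members (1.0e-10, limma). *PNO1*, an assembly factor that stays on the precursor of the small subunit and holds an E-box after its start, had levels of 2.25, 2.19, 2.29 and 2.14 with DMSO. With 1 µM G-1 they were 3.52, 3.23, 3.44 and 3.41, a change of 1.18 ± 0.09 SE.

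*BYSL*, bystin, rose by 1.04 ± 0.08 SE and *DDX10*, an RNA helicase, by 1.03 ± 0.09. *IMP4*, a component of the early processome, rose by 1.00 ± 0.14 and *RRP9*, a U3 snoRNP protein, by 0.92 ± 0.10. *UTP4* rose by 0.89 ± 0.07 and *NOB1*, the endonuclease that makes the final cut of the small subunit RNA, by 0.80 ± 0.06. *RRP12*, *WDR3*, *UTP20*, *WDR43* and *NAT10* rose by 0.62, 0.57, 0.46, 0.37 and 0.23, with SEs between 0.06 and 0.14. *NAT10*, the acetyltransferase of ribosomal RNA, had overlapping groups, at 3.28, 3.21, 3.40 and 3.27 with DMSO against 3.40, 3.55, 3.62 and 3.51.

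*TSR1*, a late assembly factor of the small subunit, was the one small subunit member not called, and its 2 probes disagreed. By the brightest probe the levels were 9.59, 9.47, 9.68 and 9.60 with DMSO and 9.64, 9.56, 9.43 and 9.61 with 1 µM G-1. They overlapped (-0.03 ± 0.08 SE, limma adjusted p = 0.789). The other probe, annotated to the same transcript and also well above background on all 24 arrays, rose by 0.67 ± 0.07 SE (limma adjusted p = 4.2e-08). Its mean level over all arrays was 3.91, against 9.51 for the brightest probe, and the reason for that gap was not tested. The mean of both probes also rose, by 0.32.

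All 15 large subunit members rose at 72 h, 5 of them by more than 2-fold, with a median of 0.87. *DDX21*, an RNA helicase that links RNA polymerase I and II transcription to processing, had levels of 3.91, 4.05, 3.98 and 4.06 with DMSO. With 1 µM G-1 they were 5.44, 5.16, 5.42 and 5.38, so that the groups were apart, with a change of 1.35 ± 0.11 SE or 2.55-fold. *NOP2*, the methyltransferase known as the proliferation antigen p120, had 2.25, 2.33, 2.51 and 2.35 against 3.42, 3.59, 3.66 and 3.50, a change of 1.18 ± 0.10.

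*GNL3*, nucleostemin, a GTPase of the nucleolus found in stem cells and tumours, had 3.83, 3.79, 3.95 and 4.02 with DMSO and 5.15, 4.94, 5.25 and 4.97 with 1 µM G-1. Its change was 1.18 ± 0.09 SE (limma adjusted p = 4.9e-10). *NOP16* rose by 1.05 ± 0.10 from 4.03, 4.14, 4.35 and 4.42 to 5.19, 5.25, 5.36 and 5.34, and no array overlapped in either gene. *RRS1*, which brings 5S RNA into the subunit, and *WDR74* rose by 1.00 each.

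The 3 proteins of the PeBoW complex, which is needed for maturation of the large subunit RNA, rose unequally. *BOP1* rose by 0.84 ± 0.14 SE, *WDR12* by 0.62 ± 0.07 and *PES1* by 0.42 ± 0.14, and of these the groups of *PES1* overlapped. Without the second array of 1 µM G-1 at 72 h *PES1* was not called. The remaining members, *PPAN*, *RRP1B*, *URB2*, *EBNA1BP2*, *MRTO4* and *NIP7*, rose between 0.64 and 0.88. The second probe of *WDR74* that was tested gave 0.35 ± 0.27 and did not pass.

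Both enzymes of polyamine synthesis among the metabolic targets rose at 72 h, and the pyrimidine enzyme was not called. *ODC1*, ornithine decarboxylase, had levels of 7.28, 7.37, 7.54 and 7.56 with DMSO and 8.38, 8.25, 8.46 and 8.38 with 1 µM G-1, without overlap. The change was 0.93 ± 0.08 SE. *SRM*, spermidine synthase, rose by 0.83 ± 0.10, from 5.09, 5.06, 5.34 and 5.21 to 5.83, 6.10, 6.13 and 5.94. *CAD*, which opens pyrimidine synthesis, had 3.73, 3.76, 3.96 and 3.86 against 3.52, 4.08, 3.88 and 3.79, which overlapped (adjusted p = 0.932 by limma).

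With 1 µM G-1 for 24 h, 27 of the 48 members rose and none fell, while 20.0% of all tested genes rose and 10.5% fell. The median change was 0.28, against 0.04 over all genes, and none of the members passed 2-fold (0.513% of all genes did upward). In 29 members the 4 arrays lay above all DMSO arrays, against 19.5% of all genes. Of the 27, 26 were also called at 72 h, and *TSR1* was the exception (0.21 ± 0.08 SE, limma adjusted p = 0.0488, a call that 17 of the 24 single-array omissions ended). That holds for its brightest probe, and its other probe passed at both durations (0.25 ± 0.07 at 24 h, adjusted p = 0.0105) and in the interaction (0.42 ± 0.10, adjusted p = 0.00215). The number of members depended on the scaling, with 13 members at the 50th percentile and 17 after normexp background correction, all of them higher. Higher calls over all 14233 tested genes also became fewer, from 2852 to 960 at the 50th percentile and 1591 after normexp. Among all genes called at 24 h, 65.6% were higher at the 75th percentile, but 54.3% after quantile normalization and 44.2% at the 50th percentile.

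The order of the members at 24 h was not that at 72 h. *IMP4* led at 24 h, with levels of 3.73, 4.44, 4.66 and 4.64 with DMSO and 5.29, 5.15, 5.23 and 5.15 with 1 µM G-1. The change was 0.84 ± 0.14 SE, and the first DMSO array was low. Without that array the change was 0.63, below the 0.68 of *NOP2* and of *NOP16*, so that the first place rests on it. *NOP2* (0.67 ± 0.10), *NOP16* (0.66 ± 0.10), *MYC* (0.65 ± 0.15), *BYSL* (0.61 ± 0.08) and *PPAN* (0.61 ± 0.16) followed. *LYAR* and *DKC1*, which came after *MYC* at 72 h, were at 0.42 ± 0.10 and 0.39 ± 0.11. By role, 10 of 14 small subunit members, 8 of 15 large subunit members, 3 of 8 members of ribosomal DNA transcription, 2 of 4 box C/D, 1 of 3 box H/ACA and 2 of 3 metabolic members rose. The smallest values were those of *WDR43* (-0.02 ± 0.10) and *UTP20* (0.01 ± 0.07).

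The difference between durations was itself tested, and a constant offset of slide 3 cancels in it. The interaction of 1 µM G-1 with duration was called in 36 of the 48 members, all positive, whereas 16.5% of all genes had a positive and 17.6% a negative call. The count was 25, all positive, at the 50th percentile and also without the filter on dim probes. Over all genes 1238 of 14233 had a positive call at the 50th percentile, and 1454 of 24813 without the filter. With the mean of all probes of a gene the count of members was 35, with *TCOF1*, *WDR3* and *WDR74* lost and *NPM1* and *POLR1C* gained. The median was 0.43, against 0.00 over all genes, and 46 members had a positive value. *MYC* (1.33 ± 0.21 SE) and *LYAR* (1.11 ± 0.14) passed 1 on the log2 scale, as 2.42% of all genes did upward. They were followed by *DKC1* (0.96 ± 0.16), *GNL3* (0.80 ± 0.12), *DDX21* (0.80 ± 0.16) and *PNO1* (0.79 ± 0.12). The 12 members not called were *POLR1A*, *POLR1C*, *NPM1*, *GAR1*, *IMP4*, *NAT10*, *TSR1*, *RRP12*, *BOP1*, *PES1*, *PPAN* and *CAD*. With the slide as a block the same 36 members were called. With the replicate number as a block *POLR1C* was called as well, for 37 members. For *IMP4* the interaction was 0.17 ± 0.20, and 0.38 without the first DMSO 24 h array, when it was called (limma adjusted p = 0.0315).

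Within slide 3, 39 of 48 members were higher at 72 h than at 24 h of 1 µM G-1 and none was lower. Over all genes 18.9% were higher and 24.3% lower. The median was 0.39, and in 38 members the arrays of the durations did not overlap (16.9% of all genes in that direction). In the DMSO groups 1 member, *DKC1*, was lower at 72 h (-0.41 ± 0.11 SE, limma adjusted p = 0.0468) and none was higher, where 2.06% of all genes were lower and 1.23% higher. The median in DMSO was -0.09, and in 10 members all arrays at 72 h lay below those at 24 h (8.56% of all genes). In 1 member, *CAD*, they lay above (4.31%), and 13 had an unadjusted p under 0.05 (19.2%). The 10 that lay below included *MYC*, *LYAR*, *PNO1*, *GNL3*, *NOP58* and *DKC1*.

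**Figure D3:**
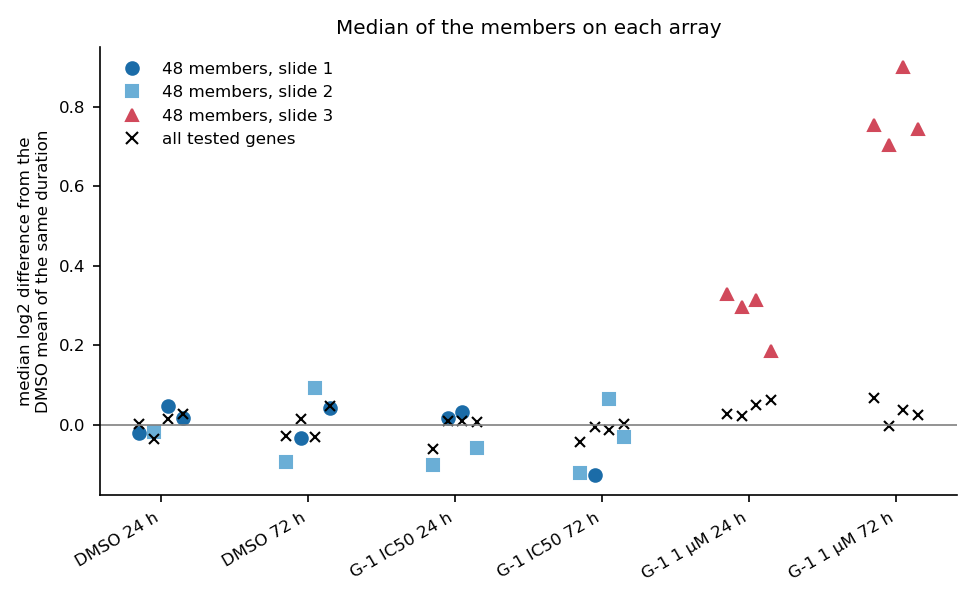
Median over the 48 members of the log2 difference from the DMSO mean of the same duration (y axis) on each of the 24 arrays by group (x axis), with the slide as symbol and the median over all tested genes as a cross. The members' medians on the 1 µM arrays range over 0.19 to 0.33 at 24 h and 0.70 to 0.90 at 72 h, while the medians of all genes stay between -0.06 and 0.07.

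On single arrays the members moved together. The median difference of the members from the DMSO mean lay between 0.70 and 0.90 on the 4 arrays of 1 µM G-1 at 72 h, and 47 of 48 members were above the DMSO mean on each. The range was 0.19 to 0.33 on the 24 h arrays, with 45 or 46 members above. On the IC50 arrays the range was -0.10 to 0.03 for 24 h and -0.13 to 0.06 for 72 h. The DMSO arrays themselves spread from -0.09 to 0.09 around their own mean at 72 h, with 4 to 42 members above it. Across the 48 members the changes at 24 h and 72 h had a Pearson r of 0.70 and a Spearman rho of 0.79, which is a description over genes that share arrays. Both changes set slide 3 against slides 1 and 2, so that an offset of slide 3 in a gene enters both.

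At the IC50 dose, set against the same DMSO arrays as 1 µM, no member was called at 24 h or at 72 h by limma. Among all genes 0.429% were higher and 0.457% lower at 72 h, and 0.218% and 0.0281% at 24 h. At an unadjusted p under 0.05 there were 5 members at 72 h and 2 at 24 h, against 9.60% and 4.67% of all genes. The medians were -0.07 at 72 h and -0.02 at 24 h. The arrays did not overlap in 1 member upward and 2 downward at 72 h (2.68% and 4.87% of all genes), and in 3 downward at 24 h (1.19%).

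The members with the largest values at the IC50 dose for 72 h were *DDX10*, *MYBBP1A*, *BOP1* and *IMP4*. *DDX10* had levels of 5.19, 5.32, 5.32 and 5.29 against 4.79, 4.99, 5.07 and 5.12 with DMSO, without overlap (0.29 ± 0.09 SE, limma adjusted p = 0.231). *MYBBP1A* had 2.21, 2.01, 2.25 and 2.20 against 2.28, 2.27, 2.51 and 2.51, all below DMSO (-0.22 ± 0.08, adjusted p = 0.389). *BOP1* and *IMP4* had overlapping groups, at -0.20 ± 0.14 each. The 95% intervals of the members, from the SE and the 18 residual degrees of freedom, ran from -0.50 at the lowest to 0.48 at the highest at 72 h. In 46 of 48 members the upper bound lay below the change estimated at 1 µM, the exceptions being *TSR1* and *CAD*, and at 24 h this held for 41. The change at 1 µM was taken here without its SE, and dose and slide cannot be told apart in it. For *MYC* at 72 h the interval was -0.39 to 0.24.

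The doses of G-1 were also compared with each other at matched durations. At 72 h, 46 of 48 members were higher at 1 µM than at the IC50 dose and none was lower, with a median of 0.80 (35.9% of all genes were higher and 29.3% lower). The difference passed 2-fold in 17 members (4.52% of all genes upward), and the arrays did not overlap in 45 (31.7%). *MYC* differed by 2.06 ± 0.15 SE, and *TSR1* and *CAD* were not called. At 24 h, 33 members were higher and none lower, with a median of 0.32, while 18.3% of all genes were higher and 8.29% lower, and the arrays did not overlap in 34 (19.0%). These comparisons share the 1 µM arrays with those against DMSO and carry the same slide. At the 50th percentile the median of all genes moved by -0.16 at 72 h and by -0.17 at 24 h, and 7 members were called at 24 h. Of all 14233 tested genes, 405 were higher and 1773 lower at 24 h at that percentile.

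The interaction of the IC50 dose with duration was called in none of the 48 members, and over all genes 0.0141% had a negative and none a positive call. One member, *IMP4*, had an unadjusted p under 0.05 (-0.42 ± 0.20 SE, limma adjusted p = 1.0), against 4.22% of all genes. That value of *IMP4* includes its low first DMSO 24 h array. The median of the members was -0.04.

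Other genes of ribosome production, 115 tested of 118 listed, were read from 4 lists that hold no member. At 1 µM G-1 for 72 h 93 of them rose and 3 fell, with a median of 0.50, and at 24 h 44 rose and 3 fell, with a median of 0.16. Over all tested genes 35.2% rose and 30.9% fell at 72 h, and 20.0% rose and 10.5% fell at 24 h. None of the 115 was called at the IC50 dose at either duration. The promoters of these listed genes held CACGTG in 27 of 100 (27.0%). The lists were written from general knowledge with earlier results of these data known, and the counts are a description.

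**Figure D4:**
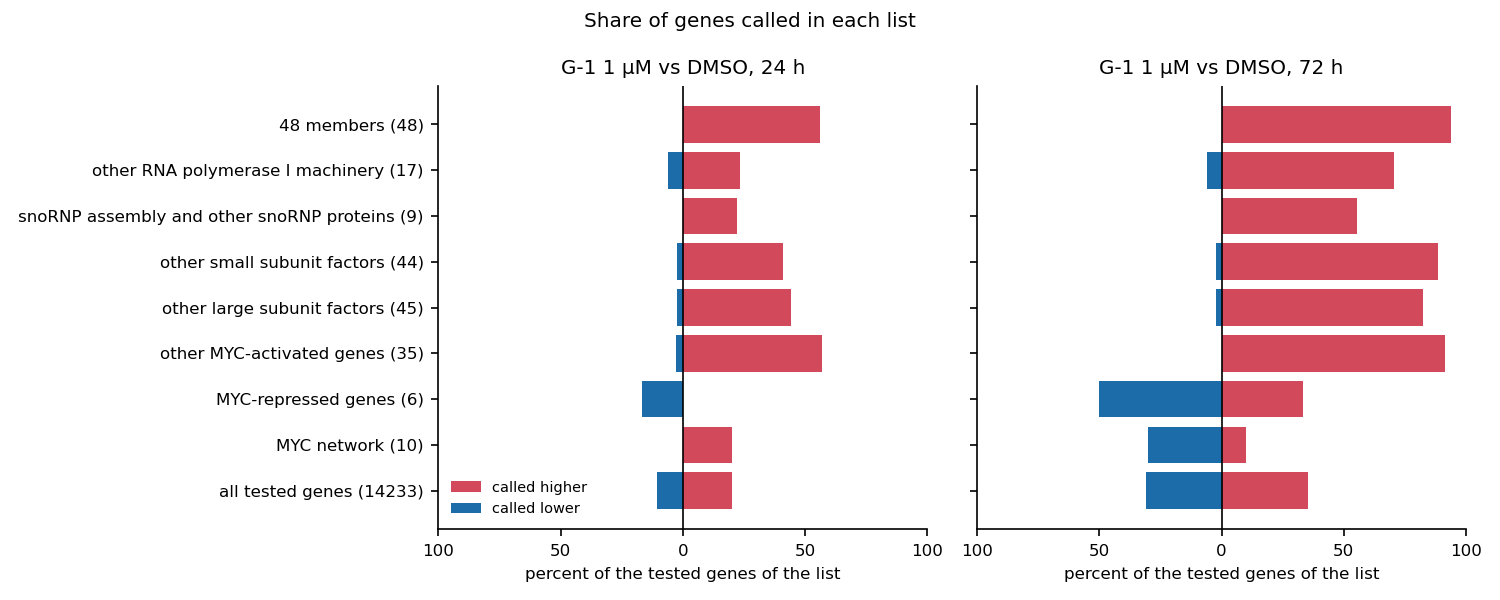
Share of the tested genes of each list called higher (to the right) or lower (to the left) at 1 µM G-1 against DMSO, in percent on the x axis, at 24 h and 72 h, with the number of tested genes in brackets. At 72 h 93.8% of the members were higher against 35.2% of all tested genes, and at 24 h 56.2% against 20.0%.

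Of 17 other genes of the RNA polymerase I machinery, 12 rose and 1 fell at 72 h. *POLR1G* (1.58 ± 0.13 SE) and *POLR1E* (1.31 ± 0.13), subunits of the polymerase, and *TAF1D* (1.17 ± 0.17), of the promoter factor SL1, had the largest changes. *UBTF*, the factor that keeps ribosomal DNA open, was the one that fell (-0.37 ± 0.13, limma adjusted p = 0.0211). It was also lower at 24 h, by -0.52 ± 0.13. Of 9 genes of snoRNP assembly, 5 rose and none fell, led by *SHQ1* (0.93 ± 0.12), the chaperone of dyskerin, and by the ATPases *RUVBL2* (0.65 ± 0.10) and *RUVBL1* (0.65 ± 0.09).

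Of 44 other small subunit factors, 39 rose and 1, *TBL3* (-0.25 ± 0.10 SE), fell. The kinase *RIOK1* (2.14-fold), the GTPase *BMS1* (1.04 ± 0.07) and *UTP6* (0.95 ± 0.16) led. Of 45 other large subunit factors, 37 rose and 1, *NOP53* (-0.39 ± 0.08), fell. *RPF2* (1.08 ± 0.07), which works with RRS1 on 5S RNA, *RRP15* (0.995 ± 0.097) and *RBM28* (0.94 ± 0.06) led.

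Genes that MYC is known to activate outside the ribosome mostly rose as well. This list, too, was chosen with earlier results of these data known. Of 35 tested, 32 rose and none fell at 72 h, with a median of 0.55, and 20 rose and 1 fell at 24 h. Over all tested genes 35.2% rose and 30.9% fell at 72 h, and 20.0% rose and 10.5% fell at 24 h. *MTHFD2*, a mitochondrial folate enzyme, rose by 1.42 ± 0.10 SE, the phosphatase *CDC25A* by 1.23 ± 0.12 and the amino acid transporter chain *SLC3A2* by 1.04 ± 0.12.

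The 10 tested genes of the MYC network, its partners and competitors for MAX, did not share 1 direction. At 72 h 1 of them rose and 3 fell, where 35.2% of all tested genes rose and 30.9% fell. At 72 h *MXD4* (-1.32 ± 0.10 SE), *MXD3* (-0.66 ± 0.09) and *MNT* (-0.34 ± 0.06) fell. These proteins bind MAX in place of MYC and repress transcription at E-boxes. *MLX*, a MAX-like partner of the glucose sensors MondoA and ChREBP, rose by 0.57 ± 0.06, and *MAX* itself was not called (-0.14 ± 0.06). At 24 h *MXD3* was higher, by 0.34 ± 0.09 (limma adjusted p = 0.00851), as was *MLX*, and *MXD4* was at 0.02 ± 0.10. No other network gene was called at 24 h, where 20.0% of all tested genes rose and 10.5% fell. When replicate number was a block separately at each duration, 7 network genes were called at 72 h, 2 higher and 5 lower. With that block 5242 of all 14233 tested genes were higher and 4595 lower.

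Genes that MYC is known to repress were split. Of 6 tested, 2 rose and 3 fell at 72 h, where 35.2% of all tested genes rose and 30.9% fell. *TXNIP* (-1.53 ± 0.23 SE), *NDRG2* (-0.95 ± 0.07) and *CDKN1C* (-0.90 ± 0.11) fell. *GADD45A*, a growth arrest and DNA damage gene that p53 also drives, rose by 1.68 ± 0.11, and the cyclin-dependent kinase inhibitor *CDKN1A* by 0.68 ± 0.17.

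**Figure D5:**
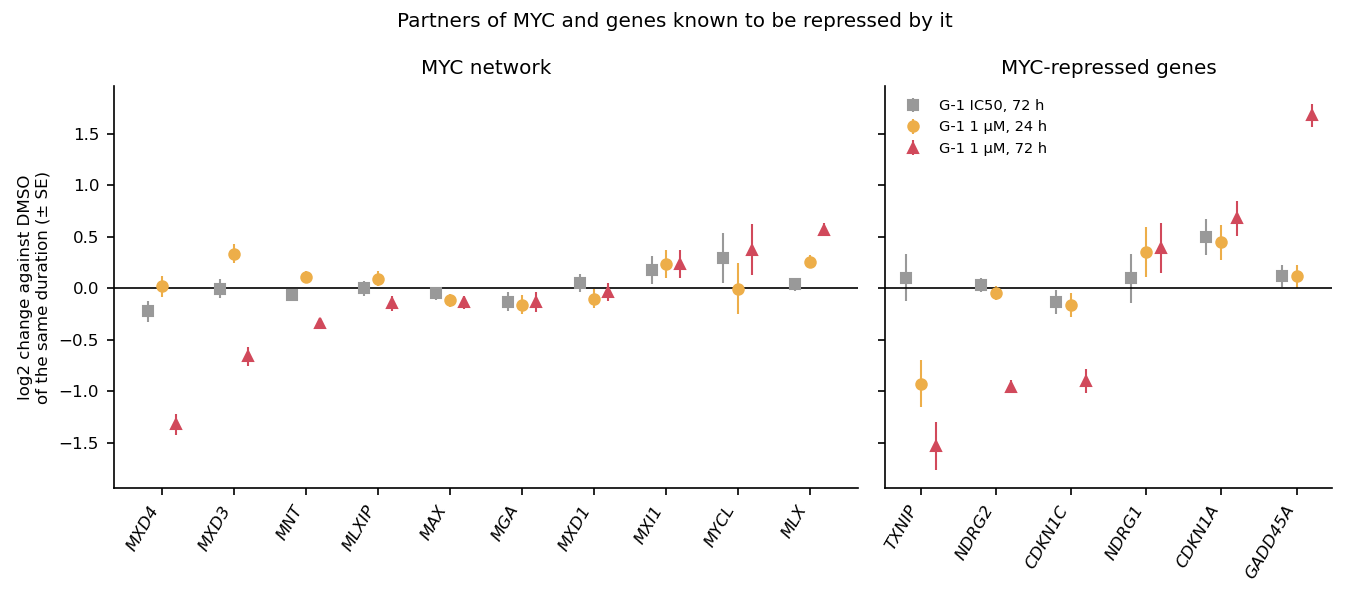
Log2 change against DMSO of the same duration (y axis, points with SE bars) for 10 genes of the MYC network and 6 genes known to be repressed by MYC (x axis). At 1 µM G-1 for 72 h *MXD4*, *MXD3* and *MNT* sit below 0 and *MLX* above, and *GADD45A* reaches 1.68 where *TXNIP* sits at -1.53.

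The changes of members with and without the E-box spanned overlapping ranges. At 1 µM G-1 for 72 h the 15 members with CACGTG had a median change of 0.76, from 0.23 to 1.18, and the 24 others with a promoter had 0.70, from -0.03 to 1.52. *NAT10* and *WDR43*, among the members with the smallest changes, held the motif. *LYAR* and *DKC1*, among those with the largest, did not. No test was made of this difference.

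Markers of the cells changed as well at 72 h, in both directions. Of the 7 astroglial and glioma markers, 6 fell with 1 µM G-1, where 30.9% of all tested genes fell. The changes were -2.71 ± 0.31 SE for *GFAP* and -1.96 ± 0.20 for *S100B*. The log2 summed level of the list was 10.1 to 10.3 against 10.6 to 10.8 with DMSO. At 24 h 1 of 7 fell, and 3 of 5 neuron markers tested fell, where 10.5% of all tested genes fell. The summed level of the neuron markers was 2.52 to 2.91 against 2.91 to 3.53 with DMSO. The summed level of the 5 leukocyte markers, not well above background on any array, overlapped at 72 h (-2.62 to -1.76 against -2.83 to -1.79). Of 6 neuron markers, 5 were tested, and at 72 h 2 rose and 3 fell. Of 5 endothelial markers, 3 were tested, with *KDR* higher and *VWF* lower. The part of these changes in the members' response was not tested.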

How the data were processed

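RNA of U251 cells was measured on 24 one-colour Agilent arrays. The authors deposited spot intensity values from Feature Extraction (12.1.1.1 per the file headers, 10.7.3.1 in the submitters' processing notes), background-subtracted and detrended, with flags. They also deposited a log2 table per probe, which matched log2 intensities at the 75th percentile centred on each probe's median (57818 probes, largest difference 0.00577).

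Outlier-flagged spots were dropped and repeated spots averaged, and log2 intensities were scaled by subtracting their array's 75th percentile. Of 58118 probes with a value on every array, 22970 were tested, namely those flagged well above background on every array of 1 group or more. Symbols came from RefSeq (GRCh38.p14): 35028 of 35956 probes with a RefSeq accession matched. A gene was represented by its brightest tested probe. The means of 6 groups were estimated in 1 limma fit (limma 3.58.1, R 4.3.3) over the 24 arrays with Benjamini-Hochberg adjustment, and the fit was tested on simulated data. Calls needed an adjusted p under 0.05. The number of arrays limits the precision.

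The members and lists were chosen with earlier results of these data known. Genes were named by rule: *MYC*, the 8 members with the highest and the 8 with the lowest change at 1 µM for 72 h, the 4 with the largest interaction with duration and the 4 with the largest value at the IC50 dose for 72 h, and in each list the 3 called genes with the largest change and every called network gene. Other members were named to place them in their role. Promoters came from RefSeq, and members were matched by symbol.

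The alternatives tried were the 50th percentile, quantile normalization, normexp on the median signal (offset 50), no filter, a filter that asked for detection on all 24 arrays, the deposited log2 table, only the arrays of a comparison, an intensity trend, replicate number or slide as a block, the methods' t-test, a 2-fold threshold, the mean of a gene's probes, and each array left out. Same-numbered arrays deviated together in every pair (r over 0.1) for 1 µM against DMSO at 24 h (0.166 to 0.281) and against the IC50 dose at 24 h (0.202 to 0.308), but not in the other comparisons.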

Additional observations from a re-analysis of the deposited data

Results flagged for a closer look

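The response of the members to 1 µM G-1 differed between 24 h and 72 h. The interaction of dose and duration was called in 36 of 48 members by limma, all positive (16.5% of all tested genes had a positive call), and in 25 of these 36 at the 50th percentile or without the filter on dim probes. Over all genes the interaction had a positive call in 1238 of 14233 at the 50th percentile and in 1454 of 24813 without the filter. Among the members named by rule it was 1.33 for *MYC*, 1.11 for *LYAR*, 0.96 for *DKC1*, 0.80 for *DDX21*, 0.79 for *PNO1*, 0.51 for *NOP2* and 0.80 for *GNL3*. It was 0.39 for *NOP16*, 0.29 for *NHP2*, 0.39 for *WDR43*, 0.61 for *DDX10* and 0.43 for *MYBBP1A*. The calls of *NOP16*, *WDR43* and *NHP2* were lost when single arrays were left out, with values down to 0.32, 0.33 and 0.25.

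In 5 of 120 sets of 4 replicates, 1 array stood apart from the other 3, where chance flags about 1 in 20 sets. *LYAR* was at 3.14 on the second array of DMSO 24 h, above the others. *TSR1* was at 9.26 on the second array of G-1 IC50 72 h and *POLR1A* at 1.67 on the third array of G-1 1 µM 24 h, both below the others. *NPM1* was at 9.37 on the fourth array of DMSO 72 h and *NHP2* at 8.05 on the first array of G-1 1 µM 24 h, both above the others.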

How the results depend on the processing

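The count of members called at 1 µM G-1 against DMSO for 72 h, 45, lay between 41 (50th percentile) and 46 under the alternatives without a fold threshold, and all were higher. With a fold change above 2 it was 13, also by the methods' t-test, unadjusted and adjusted, and 17 for 1 µM against the IC50 dose at 72 h by all 3. The interaction, called in 36, kept 25 of these at the 50th percentile and 25 without the filter on dim probes, and the fold threshold left 2. It left 0 for 1 µM against DMSO or the IC50 dose at 24 h, for 1 µM between durations and for DMSO between durations, as did the methods' t-test, unadjusted or adjusted, in these 4 comparisons. *MYC* at 24 h, 0.65, fell short of 2-fold under all of these. At 24 h the counts were 13 (50th percentile) and 17 (normexp) against DMSO, and 7 and 16 against the IC50 dose, with the cause not tested. Over all 14233 tested genes the higher calls were, in the same order, 960 and 1591 against DMSO, and 405 and 1394 against the IC50 dose. In DMSO, 72 h against 24 h, the 1 member called became 0 with quantile normalization, the 50th percentile, no filter or only the arrays of the comparison, 2 with normexp or the slide as a block, 3 with an intensity trend and 4 with a replicate block. The mean of its probes gave *TSR1* 0.32 at 72 h in place of -0.03.

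Leaving out single arrays gave 45 to 46 members at 72 h, 24 to 28 at 24 h, 46 to 47 and 26 to 34 against the IC50 dose at 72 h and 24 h, 30 to 36 for the interaction, 32 to 41 for 1 µM between durations, 0 to 2 for DMSO, and 0 for both comparisons and the interaction of the IC50 dose. *MYC* then ranged from 1.92 to 2.08 at 72 h and from 0.61 to 0.71 at 24 h, and its interaction from 1.27 to 1.43. The replicate block gave 46 members at 72 h (*POLR1A* added) and 29 at 24 h (*RRP12* and *RRS1* added), and it lost no member called without it at either duration. The slide could not be fitted as a block for 1 µM against DMSO or the IC50 dose. Changes of the members between 0.2 and 0.3 lay near the limit of what 4 arrays per group called.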
